A study of Rattus norvegicus with 6 samples.

Results

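Adult rat hippocampal NSCs were examined for the genes of the insulin-like growth factor (IGF) system: the ligands *Igf1* and *Igf2*, the receptors *Igf1r* and *Igf2r*, and the binding proteins *Igfbp2*, *Igfbp3*, *Igfbp4*, *Igfbp5*, *Igfbp6* and *Igfbp7*. These 10 genes were picked by symbol from the 17315 rows of each expression table, and all 10 were found. Of the 10, 9 reached a mean of at least 1 TPM over the samples and are among the 10331 genes tested. TPM is a share of all transcripts corrected for transcript length, so levels of different genes can be compared with each other.

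The cells are HCN, a line of NSCs cloned from the hippocampus of adult rats. The siControl group received a control siRNA duplex and the siDerl1 group a duplex that targets *Derl1*, the gene of an endoplasmic reticulum membrane protein. All samples then had 2 days in proliferation medium with bFGF and 2 days in medium for quiescence, which holds bFGF at 10 ng/mL and BMP4 at 50 ng/mL, so that the controls also carry a siRNA and BMP4. The study compared the groups to see which transcripts depend on *Derl1* as the cells enter quiescence. Each group had 3 samples, numbered 1 to 3, of 1 line and 1 duplex. No source states a pairing. Same-numbered samples are called pairs below, from the shared numbers and from correlations in these data. Nothing says that the samples are separate cultures, so a p-value here measures only the spread between these samples.

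IGF1 and IGF2 are secreted growth factors that signal through the receptor kinase IGF1R, while IGF2R takes up IGF2 and carries it to lysosomes. The binding proteins hold the ligands outside the cell, which prolongs their life and limits or directs their access to IGF1R. IGFBP7 binds the ligands only weakly. In the adult hippocampus, IGF1 is known as a signal that acts on the proliferation and differentiation of NSCs.

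The tables keep no read numbers, so neither the depth behind a value nor its counting error is known. *Derl1* was at 121.59, 131.92 and 127.64 TPM in siControl 1, 2 and 3 and at 44.86, 70.81 and 73.98 TPM in siDerl1 1, 2 and 3, without overlap. Its level in siDerl1 was 0.369, 0.537 and 0.580 of that in siControl of the same number. The 7 NSC markers examined (*Nes*, *Sox2*, *Fabp7*, *Vim*, *Slc1a3*, *Pax6* and *Notch1*) were all at 1 TPM or more in every sample. Markers of microglia, endothelium, pericytes, fibroblasts and choroid plexus, some of the cell types known to make IGF ligands or binding proteins, were mostly under 1 TPM. Of 7 microglia markers, 6 stayed under 1 TPM (*Cx3cr1* at 0 in every sample), as did all 5 endothelial markers (*Cdh5* and *Cldn5* at 0), 4 of 5 pericyte markers (*Rgs5* and *Kcnj8* at 0), 4 of 5 fibroblast markers (*Dcn*, *Lum* and *Col3a1* at 0) and 3 of 4 choroid plexus markers (*Otx2* at 0). The remaining microglia marker, *P2ry12*, was at 3.48 to 5.41 TPM over the samples. The microglia list summed to between 3.73 and 4.43 TPM in siControl and between 3.80 and 5.72 TPM in siDerl1. The pericyte list summed to 0.29 to 0.87 TPM in siControl and to 1.08 to 1.44 TPM in siDerl1, and the fibroblast list to 0.96 to 1.44 TPM and to 1.6 to 2.31 TPM, both without overlap. The endothelial list summed to 0.52 to 0.73 TPM and to 0.15 to 0.67 TPM, and the choroid plexus list to 0.40 to 0.81 TPM and to 0 to 1.32 TPM. No gene of the endothelial, pericyte, fibroblast and choroid plexus lists passed 1.94 TPM in any sample. Oligodendrocyte, astrocyte and neuron genes were present, with 3 of 4 (*Mbp*, *Cnp* and *Sox10*, with *Mog* at 0) 2 of 4 (*Gfap* and *S100b*) and 3 of 5 (*Tubb3*, *Dcx* and *Syt1*) at 1 TPM or more in every sample. Both samples numbered 1 stood apart from the other 4. Their NSC markers summed to 4018 and 4439 TPM, against 5585 to 5910 TPM in numbers 2 and 3, but *Vim* made up most of that sum. Without *Vim* the other 6 markers summed to 1010 and 1053 TPM in number 1, against 830 to 942 TPM. Astrocyte markers summed to 726 and 774 TPM in number 1, against 484 to 514 TPM. Results on the IGF genes are therefore also given by sample number and with number 1 left out.

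The 5 detected binding proteins had the highest mean levels among the genes of the IGF system in these cells. *Igfbp3* and *Igfbp5* led, with means over the 6 samples of 261.3 TPM (SD 128, n = 6) and 248.8 TPM (SD 72.5, n = 6), and their ranges overlapped, from 83.97 to 371.59 TPM and from 135.57 to 357.03 TPM. *Igfbp4* at 69.95 TPM (SD 12.95, n = 6), *Igfbp7* at 66.3 TPM (SD 20.1, n = 6) and *Igfbp2* at 46.4 TPM (SD 14.8, n = 6) followed, and each overlapped the next. Every sample had more *Igfbp5* than *Igfbp4*, and these ranges did not overlap. *Igf2* came sixth, at 43.0 TPM (SD 2.40, n = 6), with a range that overlapped that of *Igfbp2*. *Igf2r* at 31.5 TPM (SD 3.98, n = 6) lay below *Igf2* and above *Igf1r* in every sample. *Igf1r* at 13.7 TPM (SD 2.07, n = 6) and *Igf1* at 9.17 TPM (SD 4.48, n = 6) overlapped. *Igfbp6* was listed at 0 in all 6 samples.

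**Figure D1:**
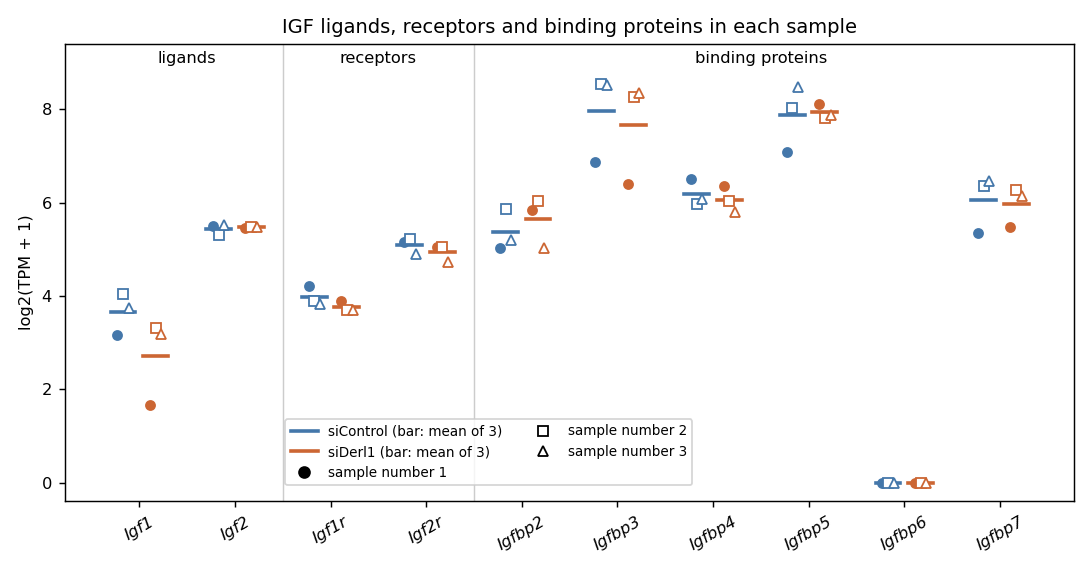
Level of each of the 10 genes in each sample, as log2(TPM + 1) on the vertical axis, with siControl in blue and siDerl1 in orange. Filled circles are sample number 1, open squares number 2 and open triangles number 3, and bars are means of 3 samples. The number 1 circles of *Igfbp3* and *Igfbp7* lie below all other samples in both groups, and *Igfbp6* is at 0.

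Most of the binding protein transcript pool came from 2 genes. The detected binding proteins summed to 413, 834 and 913 TPM in siControl 1, 2 and 3 and to 543, 739 and 715 TPM in siDerl1 1, 2 and 3. *Igfbp3* and *Igfbp5* together made up between 60.8% and 79.1% of that sum. The sum was lowest in the samples numbered 1 of both groups, while siControl and siDerl1 overlapped. Against the sum of *Igf1* and *Igf2*, binding protein transcripts were 7.85, 15.5 and 15.9 times as high in siControl and 12.1, 14.05 and 13.8 times as high in siDerl1. Transcript ratios do not give the ratio of the secreted proteins.

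**Figure D2:**
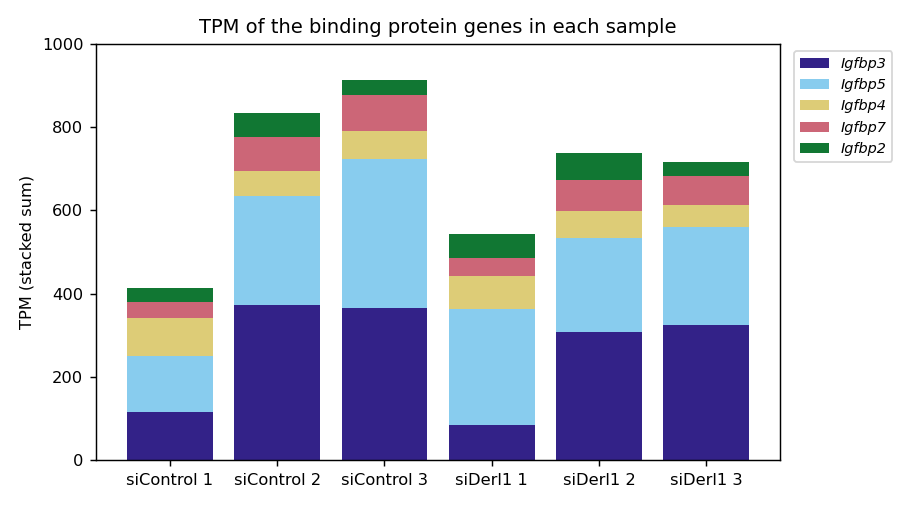
Stacked TPM of the binding protein genes in each sample, from *Igfbp3* at the base to *Igfbp2* at the top; *Igfbp6* is at 0 and has no segment. The bars of the samples numbered 1 are the shortest, at 413 and 543 TPM, and the *Igfbp3* segment is smallest there, at 115.34 and 83.97 TPM.

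No member passed an adjusted p under 0.05 between siDerl1 and siControl. Such a value was reached by 0% of the 10331 genes tested (limma, 0 genes with an adjusted p under 0.05 and 692 with an unadjusted p under 0.05). By the limits of the study, a fold above 1.5 or below 0.8 with an unadjusted p under 0.05, 0 of the 9 members were called, against 1.37% of all genes lower and 0.532% higher. The p-values for these limits are of limma here, while the study used edgeR. Of the 9 members, 4 were lower in siDerl1 than in the siControl sample of the same number in all 3 pairs (*Igf1*, *Igf1r*, *Igf2r* and *Igfbp3*), against 22.1% of all genes, and 0 were higher in all 3, against 15.8%. The groups overlapped for every member, whereas 8.52% of all genes had siDerl1 wholly below siControl and 5.09% wholly above. The median difference over the 9 members was −0.12 on the log2(TPM + 1) scale, against −0.02 over all genes tested. Exact two-sided permutation tests of the members gave p from 0.2 to 1, where 3 samples against 3 allow no p under 0.1. Some cell type markers moved with the siRNA as well. *Gfap* was at 47.01, 27.74 and 28.88 TPM in siControl and at 66.28, 47.51 and 45.32 TPM in siDerl1, higher in each pair by 0.62 on average on the log2 scale (limma adjusted p = 0.704, and 0.0219 with the sample number as a block, a call that is lost without an intensity trend). *Nes*, *Dcx* and *Syt1* were lower in siDerl1 without overlap, at 0.831, 0.719 and 0.793 of the siControl mean, and *Tubb3* was higher without overlap, at 1.15 of it. At low levels, *Col1a1* (means of 1.04 and 1.67 TPM) and *Pdgfrb* (0.39 and 1.25 TPM) were also higher in siDerl1 than in siControl without overlap. None of *Nes*, *Dcx*, *Syt1* and *Tubb3* passed an adjusted p under 0.05 in either fit of limma. By the study's limits *Gfap* was called higher and *Dcx* and *Syt1* lower, and the part of the markers in the differences of the IGF genes was not tested.

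Of the ligands, *Igf1* was the member with the largest difference between the groups. It was at 8.02, 15.39 and 12.34 TPM in siControl 1, 2 and 3 and at 2.17, 8.97 and 8.10 TPM in siDerl1 1, 2 and 3. Each siDerl1 sample lay below the siControl sample of its number, at 0.271, 0.583 and 0.656 of its TPM, but siControl 1 lay below siDerl1 2 and 3. The difference was −0.93 (SE 0.45, n = 3 per group) on the log2 scale, with a limma adjusted p of 0.763. With the sample number as a block the SE was 0.19 and the adjusted p 0.0822, which does not pass. Under that fit *Igf1* was the 1 member past the study's limits, lower in siDerl1, as were 2.41% of all genes. An adjusted p under 0.05 was then reached by 0.358% of all genes lower and 0.194% higher, and by 0 members. With number 1 left out, an alternative chosen after seeing the data that leaves 2 pairs and 1 residual degree of freedom per gene, the difference was −0.63 (SE 0.16) with a limma adjusted p of 0.0259. In that fit 1.96% of all genes were lower with an adjusted p under 0.05.

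*Igf2*, the other ligand, hardly varied. It was at 44.53, 38.36 and 44.95 TPM in siControl and at 42.83, 43.63 and 43.85 TPM in siDerl1. The difference was 0.03 on the log2 scale, with a 95% interval from −0.17 to 0.23. *Igf1* thus made up 15.3%, 28.6% and 21.5% of the ligand transcripts in siControl 1, 2 and 3 and 4.82%, 17.1% and 15.6% in siDerl1 1, 2 and 3. The share was lower in siDerl1 in each pair.

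Both receptors were slightly lower in siDerl1 in each pair, and neither difference passed a test. *Igf1r*, the signalling receptor, was at 17.56, 13.90 and 13.20 TPM in siControl and at 13.85, 11.94 and 11.96 TPM in siDerl1. The difference was −0.22 (SE 0.14) on the log2 scale, with limma adjusted p-values of 0.812 without the block and 0.399 with it. *Igf2r*, the clearance receptor, was at 34.46, 36.49 and 28.75 TPM in siControl and at 32.16, 31.97 and 25.38 TPM in siDerl1. Its difference was −0.15 (SE 0.13), with a limma adjusted p of 0.879. In each siRNA group the sample numbered 3 was lowest for *Igf2r*. The TPM ratio of *Igf2r* to *Igf1r* stayed between 1.96 and 2.68 over the 6 samples.

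*Igfbp3*, which carries most IGF in blood serum, differed far more by sample number than by siRNA. It was at 115.34, 371.59 and 365.66 TPM in siControl 1, 2 and 3 and at 83.97, 308.02 and 323.19 TPM in siDerl1 1, 2 and 3. Within pairs siDerl1 lay at 0.728, 0.829 and 0.884 of siControl. The difference was −0.30, with an SE of 0.63 and a limma adjusted p of 0.953 without the block, and an SE of 0.06 and an adjusted p of 0.0771 with it. With number 1 left out it was −0.22 (SE 0.05), with a limma adjusted p of 0.0254 under the block. That alternative was chosen after seeing the data and leaves 1 residual degree of freedom per gene. In it 1.96% of all genes were lower with an adjusted p under 0.05.

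*Igfbp5*, which binds the extracellular matrix as well as IGF, went in opposite directions in different pairs. It was at 135.57, 261.97 and 357.03 TPM in siControl 1, 2 and 3 and at 277.83, 224.34 and 235.88 TPM in siDerl1 1, 2 and 3. In pair 1 siDerl1 was 2.05 times as high as siControl, and in pairs 2 and 3 it was at 0.856 and 0.661 of it. The mean difference of 0.07 (SE 0.32) therefore described none of the 3 pairs, and its limma adjusted p was 0.979. With number 1 left out the difference was −0.41 (SE 0.07), with a limma adjusted p of 0.00155 under the block. That alternative, chosen after seeing the data, leaves out the pair that went the other way. In it 1.96% of all genes were lower with an adjusted p under 0.05. The difference between pair 1 and the mean of pairs 2 and 3 was 1.44 on the log2 scale, a value chosen after seeing the data and given with no test, since pair 1 holds 1 library of each group. The ratio of *Igfbp3* to *Igfbp5* was 0.851 in siControl 1 and 0.302 in siDerl1 1, and between 1.02 and 1.42 in the other 4 samples.

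None of the remaining binding proteins had a difference between the groups that passed a test. *Igfbp2*, a binding protein of the brain and of body fluids, was at 31.78, 57.17 and 35.98 TPM in siControl and at 56.67, 64.89 and 31.85 TPM in siDerl1. It was higher in siDerl1 in pairs 1 and 2 and lower in pair 3, with a difference of 0.27 (SE 0.30) and a limma adjusted p of 0.909. *Igfbp4*, known mainly as an inhibitor of IGF action that the protease PAPPA cleaves, was at 90.04, 62.17 and 66.92 TPM in siControl and at 80.66, 65.02 and 54.91 TPM in siDerl1. Its difference was −0.12 (SE 0.18), with a limma adjusted p of 0.934. *Igfbp7* was at 39.81, 80.93 and 87.74 TPM in siControl and at 43.37, 76.61 and 69.61 TPM in siDerl1. Its difference was −0.10 (SE 0.33), with a limma adjusted p of 0.970. In each group the sample numbered 1 was the highest for *Igfbp4* and the lowest for *Igfbp7*. With number 1 left out under the block, the members that did not pass differed by 0.07 (*Igf2*, limma adjusted p = 0.752), −0.17 (*Igf1r*, 0.608), −0.18 (*Igf2r*, 0.407), 0.0045 (*Igfbp2*, 0.987), −0.11 (*Igfbp4*, 0.591) and −0.20 (*Igfbp7*, 0.194).

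**Figure D3:**
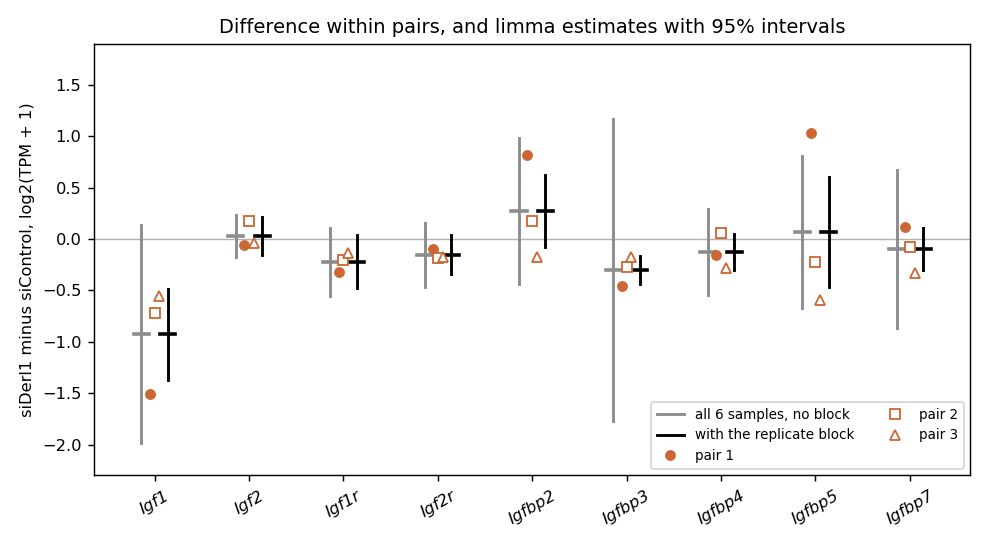
Difference between siDerl1 and siControl for the 9 tested members on the log2(TPM + 1) scale. Orange symbols are the 3 same-numbered pairs (filled circle, pair 1); crossbars with vertical lines are limma estimates with 95% intervals, grey without and black with the sample number as a block. *Igf1*, *Igf1r*, *Igf2r* and *Igfbp3* lie below 0 in all 3 pairs. The intervals of *Igfbp3* differ most between the fits, and pair 1 of *Igfbp5* (1.03) lies far above its pairs 2 and 3 (−0.22 and −0.60).

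By sample number, 4 of the 9 members differed between number 1 and numbers 2 and 3 in both siRNA groups. *Igf1*, *Igfbp3* and *Igfbp7* were lower in number 1 with a limma adjusted p under 0.05, as were 8.31% of all genes, and *Igfbp4* was higher, as were 6.8%. For the same 4 genes the samples numbered 1 did not overlap the other 4. Such a gap was found in 17% of all genes below and in 15.7% above. The contrast was chosen because number 1 was known to stand apart, so these p-values describe how firmly each gene follows that split. Of the 7 NSC markers, *Vim* and *Slc1a3* were lower in number 1 and *Sox2* and *Fabp7* higher with a limma adjusted p under 0.05, and both astrocyte markers tested, *Gfap* and *S100b*, were higher. Of the oligodendrocyte markers *Sox10* was higher (0.34, limma adjusted p = 0.00388), and the list summed to 1616 and 1782 TPM in number 1, against 1377 to 1608 TPM. The part of these markers in the differences was not tested.

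*Igfbp3* had the largest of these differences. Its mean was 99.7 TPM in number 1 and 342.1 TPM in numbers 2 and 3, a difference of −1.78 (SE 0.06) on the log2 scale, with a limma adjusted p of 3.79e-07. By p it ranked 15 of 10331 genes. *Igfbp7* had means of 41.6 and 78.7 TPM, a difference of −0.90 (SE 0.09) with a limma adjusted p of 3.55e-04. *Igf1* had means of 5.10 and 11.2 TPM, a difference of −1.15 (SE 0.21) with a limma adjusted p of 0.00649. *Igf1* in siControl 1 (8.02 TPM) and in siDerl1 3 (8.10 TPM) hardly differed. *Igfbp4* had means of 85.3 and 62.3 TPM, a difference of 0.45 (SE 0.08) with a limma adjusted p of 0.00706. Without an intensity trend in limma, the calls of *Igf1* (adjusted p = 0.0547) and *Igfbp4* (adjusted p = 0.0716) were lost, and without the siRNA term that of *Igf1* (adjusted p = 0.117).

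The other members did not pass in this contrast. *Igf2* differed by 0.03 on the log2 scale, with a 95% interval from −0.16 to 0.23, and *Igf2r* by 0.13, with an interval from −0.07 to 0.33. *Igf1r* was higher in number 1 by 0.27 (limma adjusted p = 0.176). *Igfbp2* differed by −0.10 (limma adjusted p = 0.748). *Igfbp5* differed by −0.45 (limma adjusted p = 0.278), and its direction changed with the library left out. It was −1.17 without siDerl1 1 and 0.27 without siControl 1. *Igfbp2* likewise differed by −0.50 without siDerl1 1 and by 0.31 without siControl 1. Either choice leaves 1 library of number 1, so these are given as values with no test.

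**Figure D4:**
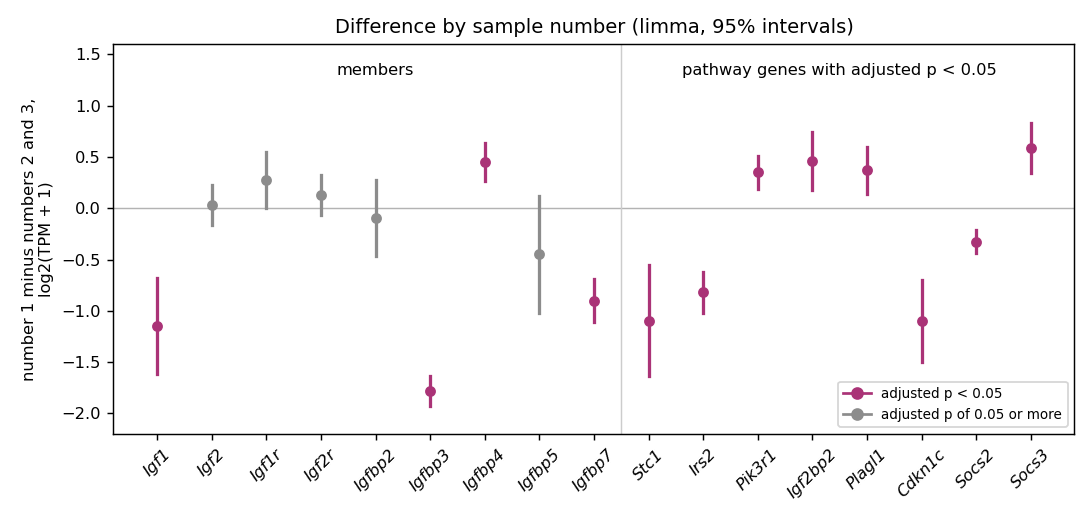
Difference between sample number 1 and the mean of numbers 2 and 3 on the log2(TPM + 1) scale, as limma estimates (points) with 95% intervals (lines). The 9 tested members are on the left and the 8 pathway genes with an adjusted p under 0.05 on the right, with genes past that threshold in purple and the others in grey. *Igfbp3* lies lowest, at −1.78, and *Igfbp4* is the 1 member above 0 that passed.

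The sequences before the transcription starts of the 4 genes that differed by sample number are shown, since these genes moved together with the number. They are the 250 bases before a RefSeq start in the build GRCr8, while the reads had been mapped to rn6. The windows are chr7:24172282-24172531 on the plus strand for *Igf1*, chr14:86277945-86278194 on the minus strand for *Igfbp3*, chr10:84491221-84491470 on the plus strand for *Igfbp4* and chr14:31091486-31091735 on the plus strand for *Igfbp7*. That of *Igf1* stands before a start inside the gene, which has others. Capitals mark matches, on either strand, to 5 motifs: the GC box GGGCGG, the TATA box TATAAA, the E-box CACGTG, the STAT element TTCNNNGAA and the forkhead element GTAAACA.
Igf1: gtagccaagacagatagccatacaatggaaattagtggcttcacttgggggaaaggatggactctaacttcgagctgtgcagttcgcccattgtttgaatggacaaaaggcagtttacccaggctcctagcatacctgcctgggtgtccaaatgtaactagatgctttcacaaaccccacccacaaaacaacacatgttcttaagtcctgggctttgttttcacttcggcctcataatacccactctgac
Igfbp3: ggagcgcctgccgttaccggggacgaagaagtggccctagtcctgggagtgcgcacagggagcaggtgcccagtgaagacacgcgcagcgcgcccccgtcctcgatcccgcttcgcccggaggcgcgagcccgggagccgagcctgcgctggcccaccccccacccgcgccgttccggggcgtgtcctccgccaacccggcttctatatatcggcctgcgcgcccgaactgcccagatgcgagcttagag
Igfbp4: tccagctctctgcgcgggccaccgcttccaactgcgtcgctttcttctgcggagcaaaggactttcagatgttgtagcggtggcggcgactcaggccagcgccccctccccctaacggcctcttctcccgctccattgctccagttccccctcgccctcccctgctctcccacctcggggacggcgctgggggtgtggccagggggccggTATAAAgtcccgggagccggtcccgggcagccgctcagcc
Igfbp7: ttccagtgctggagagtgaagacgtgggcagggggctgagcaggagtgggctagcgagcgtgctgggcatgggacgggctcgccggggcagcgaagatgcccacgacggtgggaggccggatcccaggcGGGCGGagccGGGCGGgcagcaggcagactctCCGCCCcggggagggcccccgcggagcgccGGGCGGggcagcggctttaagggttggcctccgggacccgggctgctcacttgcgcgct

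The 4 windows did not share a motif. *Igfbp7* held 4 matches to the GC box, which 30.5% of all 33469 windows of this length hold, and *Igfbp4* held 1 TATA box, which 12.9% hold. The windows of *Igf1* and *Igfbp3* held no match to any of the 5. G and C made up 46.8% of the bases before *Igf1* and 71.6%, 68.8% and 74.4% of those before *Igfbp3*, *Igfbp4* and *Igfbp7*, against a median of 51.2% over all windows. Over the 11 windows of the 10 members (*Igf2* has 2), *Igf1r*, *Igf2r* and *Igfbp2* held an E-box (5.59% of all windows), no member held a STAT element (7.67%) and *Igfbp6* held a forkhead element (3.21%). A match is a run of letters and not a bound site. In GRCr8, *Igfbp3* is next to *Igfbp1* on chromosome 14, and *Igfbp2* is next to *Igfbp5* on chromosome 9, with 0 protein-coding genes between them. *Igfbp1* reached at most 0.33 TPM, against at least 83.97 TPM for *Igfbp3*, and *Igfbp2* and *Igfbp5* did not follow the same order over the samples.

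As a description of pattern over the 6 samples, among 8274 genes with a mean of at least 10 TPM, *Nnat* (Pearson r = 0.999), *Tmed5* (r = 0.999) and *Ngfr* (r = 0.998) were most like *Igfbp3*. *Nnat* encodes neuronatin and *Ngfr* the low-affinity neurotrophin receptor. *Ngfr* was at 44.64, 154.83 and 159.74 TPM in siControl and at 34.13, 121.68 and 138.47 TPM in siDerl1. Genes most like *Igfbp5* were *Ddias* (r = 0.988), *Tmem33* (r = 0.980) and *Rhoa* (r = 0.976), and those most like *Igfbp4* were *Thtpa* (r = 0.990), *Sppl2b* (r = 0.989) and *C1ql2* (r = 0.988). The points share the libraries, and for *Igfbp3* the samples numbered 1 lie far from the other 4.

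Outside the family, a list of 62 genes of the IGF and insulin pathway was examined, of which 57 are in the tables and 44 were tested. Between the siRNA groups 0 of the 44 passed an adjusted p under 0.05. By limma 1, *Stat5b*, passed the study's limits, lower in siDerl1, as did 1.37% of all genes. The study applied its limits with edgeR and also lists *Dlk1*, a gene of this list, as lowered. *Dlk1* was under the filter here and not tested, at 0.85, 0.62 and 0.46 TPM in siControl and at 0, 0 and 0.16 TPM in siDerl1. The median difference was −0.07, against −0.02 over all genes. With the sample number as a block, *Eif4ebp1* rose and no gene of the list fell at an adjusted p under 0.05. Of all genes, 0.194% rose and 0.358% fell by that rule. With the block, *Irs2*, *Cdkn1c* and *Stat5b* were past the study's limits, lower in siDerl1, as were 2.41% of all genes. *Pappa2*, *Irs4*, *Foxo6*, *Rictor* and *Igf2bp3* were not analysed here.

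*Stat5b*, the transcription factor that carries the growth hormone signal to *Igf1* in the liver, was at 34.83, 34.02 and 37.86 TPM in siControl and at 28.91, 25.14 and 25.16 TPM in siDerl1. The groups did not overlap, and the difference was −0.42 (SE 0.09) with a limma adjusted p of 0.692 (0.0917 with the block). *Eif4ebp1*, a translation inhibitor that mTORC1 phosphorylates, was at 98.59, 110.08 and 117.80 TPM in siControl and at 144.63, 164.23 and 139.04 TPM in siDerl1. Its difference was 0.45, with limma adjusted p-values of 0.669 without the block and 0.0366 with it, a call that is lost without an intensity trend, where 0 of all genes passed. *Irs2*, an adaptor of the IGF1 and insulin receptors, was at 23.94, 41.01 and 42.34 TPM in siControl and at 18.16, 33.68 and 33.94 TPM in siDerl1. Like *Igf1* and *Igfbp3*, *Irs2* was lower in siDerl1 in each pair and lower in number 1 than in numbers 2 and 3.

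By sample number, 8 of the 44 pathway genes passed, 4 in each direction, beside 8.31% of all genes lower and 6.8% higher. Lower in number 1 were *Irs2* (−0.82, limma adjusted p = 4.19e-04), *Socs2* (−0.33, limma adjusted p = 0.00303), *Cdkn1c* (−1.10, limma adjusted p = 0.00367) and *Stc1* (−1.10, limma adjusted p = 0.0160). *Socs2* and *Socs3* encode feedback inhibitors of cytokine receptors, *Cdkn1c* an imprinted inhibitor of the cell cycle, and *Stc1* a stanniocalcin. Higher in number 1 were *Socs3* (0.59, limma adjusted p = 0.00689), *Pik3r1* (0.35, limma adjusted p = 0.0119), *Plagl1* (0.37, limma adjusted p = 0.0394) and *Igf2bp2* (0.46, limma adjusted p = 0.0395). *Pik3r1* encodes a regulatory subunit of PI3K, *Plagl1* an imprinted zinc finger protein and *Igf2bp2* a protein that binds IGF2 mRNA.

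The remaining genes set for naming did not pass a test. *Insr*, the insulin receptor, lay close to *Igf1r*, with a ratio of *Igf1r* to *Insr* between 0.837 and 1.05 over the 6 samples. *Irs1* was at 15.77, 20.06 and 21.29 TPM in siControl and at 14.87, 16.85 and 17.98 TPM in siDerl1. Its difference was −0.18 (limma adjusted p = 0.849). *Stc2*, an inhibitor of PAPPA, was at 4.80, 5.85 and 5.16 TPM in siControl and at 6.55, 6.07 and 10.14 TPM in siDerl1. The groups did not overlap, and the difference was 0.43 (limma adjusted p = 0.763). *Pappa* itself was at most 0.04 TPM and *Igfbpl1* at most 0.50 TPM. *H19*, *Ins1*, *Ins2*, *Insrr* and *Ndn* were listed at 0 in every sample, *H19* beside *Igf2* at 38.36 TPM or more.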

How the data were processed

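The authors made stranded poly(A) libraries, used Trimmomatic 0.39 on the reads, aligned them to the build rn6 by STAR 2.7.3a and had RSEM 1.3.2 estimate expression, per the labels and the submitters' processing notes. The deposited values are TPM with 2 decimals. TPM is a share of a fixed sum and keeps no depth. RSEM may split reads between similar transcripts.

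Values were tested as log2(TPM + 1) with limma 3.58.1 in R 4.3.3 (eBayes, trend by intensity) for the 10331 genes whose mean TPM reached 1, with Benjamini-Hochberg adjustment. The siRNA fit had group alone. The number fit had group and number and took number 1 minus the mean of numbers 2 and 3. The fits were tested on simulated data. Deviations from group means correlated at 0.70, 0.35 and 0.51 for same-numbered samples (across genes), which together with the labels' numbers was taken as a pairing; numbers 2 and 3 crossed correlated at 0.34 and 0.25. No source names a shared batch. No 2 samples were identical. Some genes of the marker lists are not reported here.

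The members, lists and contrasts were chosen with earlier results of these data known. The rule for named genes took all 10 members, *Derl1*, pathway genes past a call rule (at most 3 per list and fit), 9 fixed pathway genes, and the 3 genes most like each of the 3 most abundant members. Promoter windows came from RefSeq (GRCr8), which held all 10 members. Alternatives were another pseudocount (0.1), filter (none, or a mean of 5 TPM), scaling by median of ratios, no trend, the replicate block, numbers 2 and 3 as 1 level, no siRNA term and each sample left out.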

Additional observations from a re-analysis of the deposited data

Results flagged for a closer look

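*Igfbp5* and *Igfbp7* were singled out because pair 1 differed in sign from both other pairs. For *Igfbp5*, siDerl1 lay above siControl in pair 1 by 1.03 on the log2(TPM + 1) scale and below it in pairs 2 and 3, by −0.22 and −0.60. The difference between pair 1 and the mean of the others was 1.44. For *Igfbp7* the values were 0.12 in pair 1 and −0.08 and −0.33 in pairs 2 and 3, and the difference was 0.32. No test is given for these values, since pair 1 holds 1 siControl and 1 siDerl1 library. A change of sign between pairs is not particular to these genes. It was also found in *Igf2* (−0.05, 0.18 and −0.03 in pairs 1, 2 and 3), *Igfbp2* (0.82, 0.18 and −0.17) and *Igfbp4* (−0.16, 0.06 and −0.28), where another pair differed in sign, so that 5 of the 9 tested members changed sign. Of all genes tested, 22.1% were lower in siDerl1 in all 3 pairs and 15.8% higher, and the rest changed sign or held a tie.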

How the results depend on the processing

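Depth is unknown, so no counting error stands behind these values, and 3 samples per group limit the siRNA comparison. Between siDerl1 and siControl, 0 genes passed an adjusted p under 0.05 in every fit without the block and in the fit with the block and no trend. With the replicate block it was 57 genes, with the block and no filter 2, and with the block and number 1 left out 397; the last 2 were chosen after seeing the data. By the study's limits 55 genes were higher and 142 lower. These counts became 24 higher at a mean TPM of at least 5, 116 higher and 249 lower with the block, 104 and 272 with the block and no trend, 138 and 314 with the block and no filter, and 175 and 368 with the block and number 1 left out. Leaving out 1 sample gave 52 to 100 higher (most without siDerl1 1) and 114 to 252 lower (most without siControl 1).

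Of the members, *Igf1*, *Igf1r*, *Igf2r* and *Igfbp2* kept their direction in all 15 alternatives of the siRNA comparison. When 1 sample was left out, the difference ranged from −1.22 to −0.40 for *Igf1*, −0.29 to −0.10 for *Igf1r*, −0.25 to −0.043 for *Igf2r*, 0.075 to 0.58 for *Igfbp2*, −0.042 to 0.070 for *Igf2*, −0.86 to 0.33 for *Igfbp3*, −0.27 to 0.034 for *Igfbp4*, −0.32 to 0.38 for *Igfbp5* and −0.45 to 0.15 for *Igfbp7*. *Igfbp2* came to 0.0045 and *Igfbp5* turned to −0.41 with the block and number 1 left out. In that fit, chosen after seeing the data, *Igf1* (adjusted p = 0.0259), *Igfbp3* (0.0254) and *Igfbp5* (0.00155) passed in limma. The block over all 3 pairs moved no member past an adjusted p of 0.05, and *Derl1* passed with it (adjusted p = 0.00884 in limma).

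By sample number, 703 genes were higher and 859 lower. The higher count was 439 without a filter, 258 without a trend, 357 without the siRNA term and 370 to 771 with 1 sample left out. The lower count was 431 without a trend, 512 without the siRNA term and 563 to 910 with 1 sample left out, lowest in both without siDerl1 3. *Igfbp3* and *Igfbp7* kept their direction in all 13 alternatives, with left-out ranges of −1.90 to −1.67 and −1.06 to −0.74. Both passed in each alternative that kept both samples numbered 1. Where a number 1 sample is left out, 1 library of number 1 remains, so only the differences are given. The left-out ranges of *Igf2* (−0.030 to 0.098), *Igfbp2* (−0.50 to 0.31) and *Igfbp5* (−1.17 to 0.27) crossed 0. The cause of these changes was not tested.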
